A study of Homo sapiens with 42 samples.

Results

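H460 lung carcinoma cells 2 h after 2 Gy of gamma radiation were set against the same cells before irradiation. The comparison took every array titled as H460 at 2 h (3 arrays) and as H460 at 0 h (6 arrays), which is 9 of the 42 arrays of the series. H460 is a human large-cell lung carcinoma line that the study's design text calls radiosensitive. H1299, the non-small cell lung carcinoma line that it calls radioresistant, was used here at 2 h (3 arrays) and 0 h (6 arrays), and H460 at 4 h (3 arrays) gave the next time point. All cells were growing exponentially, and the irradiated ones received 2 Gy from a linear accelerator. Arrays of a group are labelled as biological replicates, with no word on whether the cultures were separate, so p-values measure the spread between these arrays, which may be technical. No array is labelled as an unirradiated culture kept for 2 h, so irradiation and time in culture cannot be told apart in any change given here. Each line is 1 established line, so nothing here speaks for other lines of the same kind.

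Ionising radiation breaks DNA, and the kinases ATM and ATR pass the signal to the transcription factor p53. p53 is stabilised and switches on genes that halt the cell cycle (CDKN1A), trigger cell death (FAS, BAX), repair DNA or feed back on p53 itself (MDM2, PPM1D). Cells in G2 are held before mitosis at the same time, and immediate-early genes such as JUN and FOS respond to kinase signals within minutes to hours.

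Levels are log2 array intensities. Those of the 9 arrays were quantile-normalized together, and 18401 genes were tested with limma. A gene was called when its p adjusted by Benjamini-Hochberg over all genes was below 0.05, and every adjusted p given here comes from limma. Errors after a change are standard errors of the model, n is 3 arrays at 2 h and 6 at 0 h throughout. As a check of the line, AKR1B10 lay 7.96 ± 0.10 and AKR1C1 7.14 ± 0.10 (log2) higher in H460 than in H1299 at 0 h, where 50.8% of all genes were called between the lines. Both are targets of NRF2, which is constitutively active in H460 through a KEAP1 mutation. The keratins KRT8 and KRT18 stood at 12.0 and 12.0 at 2 h and 12.2 and 12.2 at 0 h, and the leukocyte marker PTPRC at 2.88 at 2 h and 2.67 at 0 h. Other markers differed from these. The epithelial genes EPCAM and CDH1 were low, at 3.96 and 4.12 at 2 h and 4.03 and 3.84 at 0 h. The mesenchymal marker VIM stood at 11.2 at both times. CD14, another leukocyte marker, stood at 5.89 at 2 h and 5.95 at 0 h. In bulk RNA, fewer cells of a kind and less RNA per cell cannot be told apart.

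At 2 h 2697 of the 18401 genes (14.7%) were called. Of these, 1112 (6.04%) were higher and 1585 (8.61%) were lower at 2 h, and the median change over all genes was −0.0022 (log2). Changes of at least 2-fold were found in 70 of the higher and 117 of the lower genes. The 3 arrays at 2 h lay wholly above the 6 at 0 h for 7.33% of all genes and wholly below them for 9.22%. On the values as deposited 27% of genes were called. In H460 at 4 h 0.821% of genes were called against 0 h, and in H1299 at 2 h 0.886%.

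The 2 h arrays also differed from the others in shape, and this touches each result that follows. The interquartile range of the genes as deposited, called array width here, was 2.97, 2.81 and 2.74 (log2) in the 3 arrays at 2 h and lay between 3.14 and 3.63 in the 6 at 0 h. The mean difference was −0.498 (exact two-sided permutation p = 0.0238, the smallest that the 84 splits allow). That the 2 h arrays are narrower was known from these same arrays before the test, so its p is no separate support. At 4 h the H460 width averaged 3.34 ± 0.052 (SD, n = 3). Quantile normalization makes the distributions over all rows equal, though widths over the genes tested need not be exactly so. After it the change of a gene still went with its slope on width within the groups (r = −0.64, taken over genes that are not independent of each other). The 3rd replicate at 2 h, the narrowest array, stood farthest out on the first principal component of the normalized values, at 54.1, against 11.4 and 24.8 for its companions and −29.5 to −0.978 at 0 h. With array width added to the model no gene was called, and 879 had an unadjusted p below 0.05, against 5900 without it. Without the 3rd replicate at 2 h 670 genes were called, 287 higher and 383 lower, which is 1.56% and 2.08% of all genes. Counts of the gene groups are therefore followed below by those without the 3rd replicate, and medians by those with array width in the model, for the groups that the results turn on. The part of array width in any of them cannot be told apart from time.

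**Figure D1:**
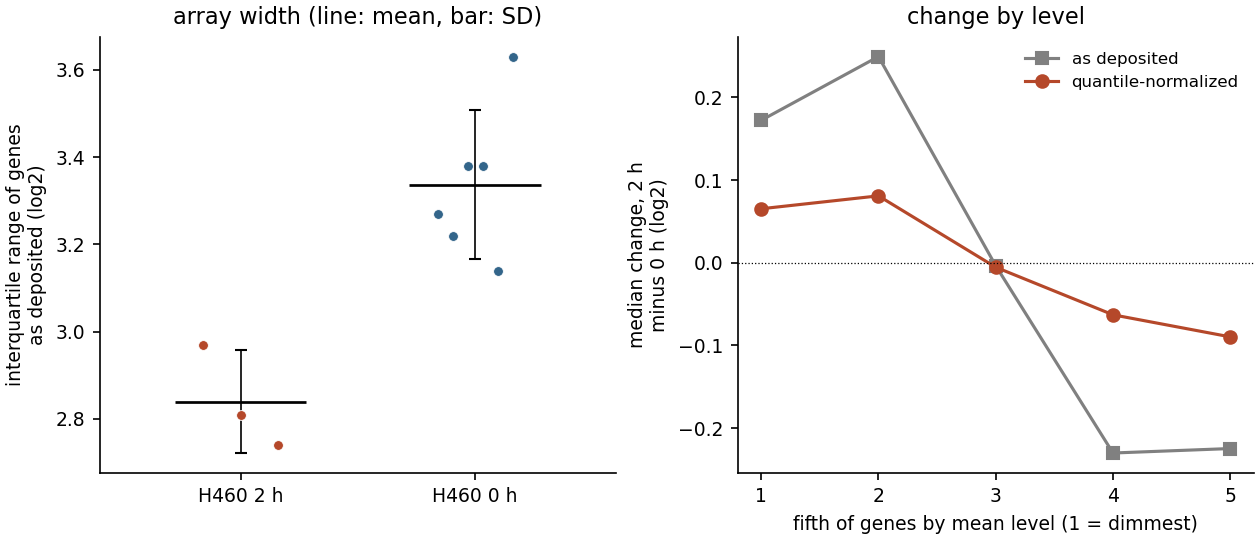
Left, width of each H460 array as deposited (interquartile range over 18401 genes, log2), with 2 h left of 0 h, points as arrays, lines as means and bars as SD. The 3 arrays at 2 h lie between 2.74 and 2.97, below all 6 at 0 h. Right, median change at 2 h against 0 h (log2) for 5 equal bins of the genes by mean level, as deposited and after quantile normalization. Dim genes lie above 0 and bright genes below it under both, by at most 0.25 as deposited and 0.09 after normalization.

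Some p53 targets had risen by 2 h, led by the cell cycle inhibitor CDKN1A. Of 63 p53 targets measured, 9 were higher and 3 lower, or 14.3% and 4.76% against the 6.04% and 8.61% of all genes, and their median change was 0.17. The risen genes were CDKN1A, PLK3, GADD45A, PPM1D, GDF15, PRDM1, FAS, TP53INP1 and BAX. Without the 3rd replicate at 2 h, 7 were higher and 0 lower.

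CDKN1A encodes p21, which inhibits cyclin-dependent kinases and arrests the cell cycle. Its level was 8.47, 8.43 and 8.57 in the arrays at 2 h, and 7.10 at the lowest, 7.28 at the median and 7.49 at the highest at 0 h. Every array at 2 h lay above every array at 0 h. The change was 1.18 ± 0.12 (2.27-fold higher, adjusted p = 8.46e-05). Adding array width to the model gave 0.96 ± 0.23 (unadjusted p = 0.000853).

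PLK3, a polo-like kinase induced by stress, had 7.35, 7.29 and 7.63 at 2 h, against 6.38 at the lowest, 6.47 at the median and 6.55 at the highest at 0 h. The groups did not overlap, and the change was 0.97 ± 0.13 (adjusted p = 0.000441), or 0.89 ± 0.24 with array width in the model. GADD45A, which takes part in growth arrest and repair, had 8.42, 8.33 and 8.31 at 2 h, against 7.56, 7.68 and 8.00 as lowest, median and highest at 0 h. Its change was 0.63 ± 0.13 (adjusted p = 0.00549). PPM1D encodes WIP1, the phosphatase that switches damage signalling off again. It had 8.61, 8.57 and 8.30 at 2 h, against 7.74, 7.93 and 8.04 at 0 h, a change of 0.57 ± 0.12 (adjusted p = 0.00797). In all 3 genes the arrays at 2 h lay above all those at 0 h.

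The death receptor FAS had 7.07, 7.01 and 7.20 at 2 h, against 6.48, 6.58 and 6.70 at 0 h, and rose by 0.51 ± 0.12 (adjusted p = 0.0126). The secreted factor GDF15 rose by 0.59 ± 0.15, the transcriptional repressor PRDM1 by 0.48 ± 0.12 and TP53INP1, which promotes p53 phosphorylation, by 0.47 ± 0.15. The arrays of these 3 genes did not overlap. BAX, which permeabilises mitochondria in apoptosis, just passed the test (0.45 ± 0.15, adjusted p = 0.0498), its groups overlapped, and with array width in the model its change was −0.21. MDM2, the ubiquitin ligase that degrades p53, just missed it. It had 10.2, 10.3 and 9.88 at 2 h, against 9.62, 9.71 and 10.1 as lowest, median and highest at 0 h, a change of 0.38 ± 0.13 (adjusted p = 0.0517).

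**Figure D2:**
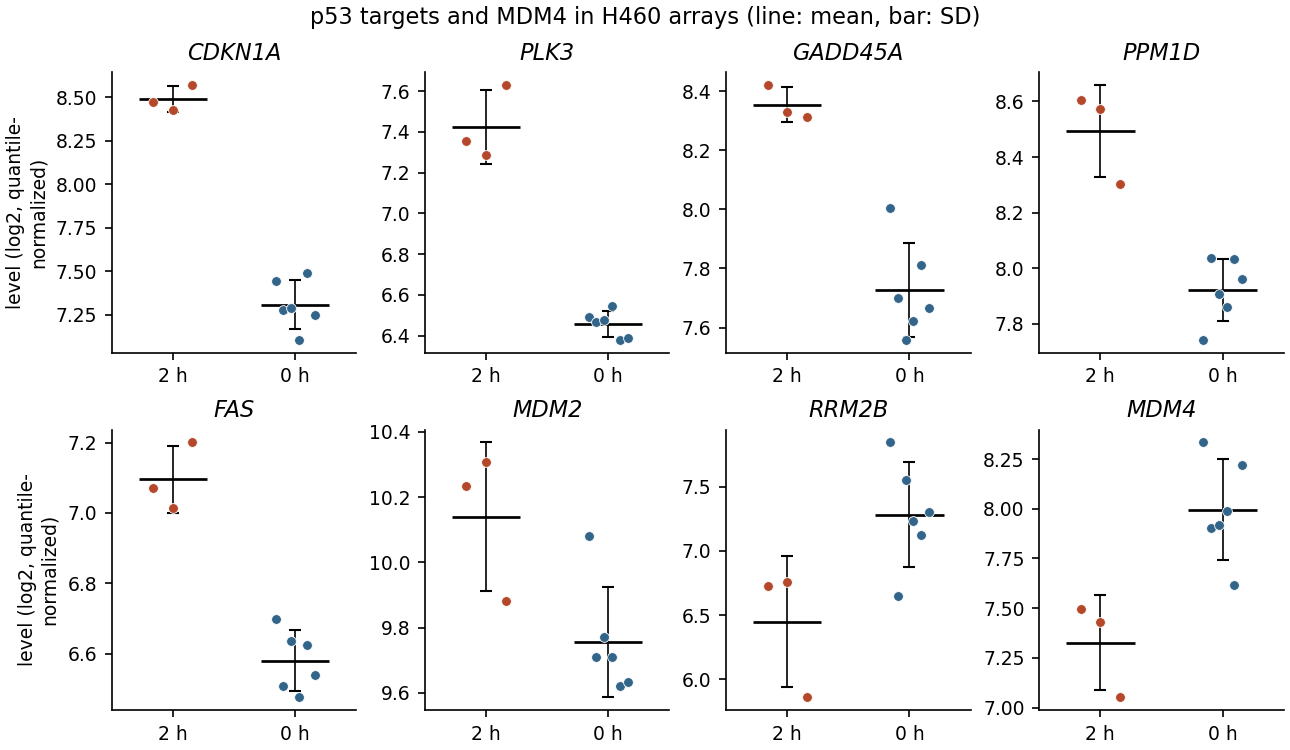
Levels (log2, quantile-normalized) of 7 p53 targets and MDM4 in H460 arrays, with 2 h left of 0 h, points as arrays, lines as means and bars as SD, and an axis of its own for each gene. CDKN1A, PLK3, GADD45A, PPM1D and FAS lie above 0 h in all 3 arrays at 2 h, MDM2 overlaps, and RRM2B and MDM4 are lower, with the 3rd replicate the lowest of the group in both.

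By role, of the targets in arrest and antiproliferative functions 4 of 11 were higher and none lower, of the feedback regulators 3 of 15 were higher and 1 lower, and of the death genes 2 of 17 were higher and 1 lower, against 6.04% higher and 8.61% lower of all genes. No death gene was called in either direction without the 3rd replicate at 2 h. Of the 20 targets in repair and metabolism none was higher and 1 was lower. The 3 lower genes were RRM2B, a ribonucleotide reductase subunit (−0.84 ± 0.23), APAF1, the core of the apoptosome (−0.71 ± 0.23), and RCHY1, a ubiquitin ligase of p53 (−0.59 ± 0.17). MDM4, the partner of MDM2, fell as well. It had 7.50, 7.43 and 7.05 at 2 h, against 7.61, 7.95 and 8.33 at 0 h, a change of −0.67 ± 0.16 (adjusted p = 0.0125). In these 4 genes the 3rd replicate at 2 h had the lowest level of all 9 arrays, and with array width in the model the changes lay between −0.345 and −0.17. The median of the 63 targets was 0.075 with array width in the model, and −0.076 when arrays were only centred on their median, where the median over all genes was −0.12 and 3 targets were higher and 11 lower.

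Many p53 targets stood higher at 4 h than at 2 h. At 4 h 18 of the 63 were called higher than at 0 h and none lower, against 0.571% and 0.25% of all genes. Of the 63, 22 stood lower at 2 h than at 4 h, against 6.59% of all genes. Among the 22 are RRM2B, APAF1 and RCHY1, which were lower at 2 h than at 0 h. At 4 h they differed from 0 h by 0.20 ± 0.24, 0.12 ± 0.22 and 0.04 ± 0.16 and were not called, so theirs was no further rise. The 2 h level minus the 4 h level was −0.70 ± 0.14 for MDM2, −1.25 ± 0.16 for TP53INP1, −1.14 ± 0.22 for GDF15 and −0.85 ± 0.13 for FAS. For CDKN1A it was −0.44 ± 0.18, which did not pass the test (adjusted p = 0.107), and for PLK3 it was 0.01 ± 0.14, which did not pass either.

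In H1299 none of the 63 targets was called higher at 2 h and 1 was called lower (none and 1 of 63, against 0.56% and 0.326% of all genes), with a median change of −0.016. CDKN1A changed by −0.11 ± 0.10 there, and the H460 change minus the H1299 change was 1.31 ± 0.14 (adjusted p = 3.78e-05). The difference between the lines was 1.04 ± 0.17 for PLK3, 0.77 ± 0.14 for GADD45A and 0.79 ± 0.17 for PRDM1, all of which passed. For FAS (0.33 ± 0.15, adjusted p = 0.125) and PPM1D (0.40 ± 0.15, adjusted p = 0.0642) it did not.

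JUN had the smallest adjusted p at 2 h among the genes named here, and it fell. JUN is a subunit of the AP-1 transcription factor and an immediate-early gene, one of those that growth factors and stress switch on without new protein synthesis. Its level was 6.09, 5.73 and 6.04 at 2 h, against 7.44 at the lowest, 7.51 at the median and 7.55 at the highest at 0 h. The highest array at 2 h lay far below the lowest at 0 h. The change was −1.55 ± 0.13 (2.92-fold lower, adjusted p = 4.53e-06), and with array width in the model it was −1.48 ± 0.24 (unadjusted p = 1.38e-05).

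Of 39 immediate-early genes 7 were lower and 2 higher, which is 17.9% and 5.13% of the list, against 8.61% and 6.04% of all genes. The median change was 0.047, and −0.13 with array width in the model. Beside JUN the fallen genes were KLF6, CCN1, CCN2, TRIB1, FOS and PPP1R15A. KLF6, a zinc finger factor, had 6.88, 6.79 and 7.04 at 2 h, against 7.76, 7.87 and 8.14 at 0 h. Its change was −1.002 ± 0.13, or −1.14 ± 0.24 with array width in the model. CCN1 and CCN2 encode secreted matrix proteins known as targets of YAP and of serum response. CCN1 had 6.78, 6.20 and 6.54 at 2 h, against 6.91, 7.36 and 7.46 at 0 h, a change of −0.78 ± 0.16. CCN2 had 8.89, 8.44 and 8.92 at 2 h, against 9.30, 9.397 and 9.55 at 0 h, a change of −0.66 ± 0.12. None of these 4 genes overlapped between 2 h and 0 h.

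FOS, the partner of JUN in AP-1, fell by 0.48 ± 0.14, TRIB1, a pseudokinase, by 0.53 ± 0.14, and PPP1R15A, which reverses the block of translation under stress, by 0.39 ± 0.13. JUNB, another AP-1 subunit, rose by 0.66 ± 0.17 with 7.67, 7.69 and 8.43 at 2 h, against 7.14, 7.22 and 7.56 at 0 h. The nuclear receptor NR4A1 rose by 0.54 ± 0.16, but its groups overlapped and its change was −0.042 with array width in the model. Without the 3rd replicate at 2 h, 5 genes of the list were lower and 0 higher. Of the 16 feedback inhibitors of MAP kinases 2 were lower and 1 higher, or 12.5% and 6.25% against 8.61% and 6.04% of all genes. DUSP6, a phosphatase of ERK, was among the lower ones (−0.51 ± 0.14).

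The promoter of JUN is printed because JUN moved most clearly and because its element for AP-1 and ATF factors lies near the start. The 300 bases run from 250 before to 50 after the start (RefSeq, GRCh38.p14, chr1:58783998-58784297, minus strand), 5′ to 3′. Capitals mark the only match to TGACNTCA on either strand, which begins 67 bases before the start. The same letters occur in 7.97% of the 27305 promoters of that length, and the match is a description of sequence, not of binding.
JUN: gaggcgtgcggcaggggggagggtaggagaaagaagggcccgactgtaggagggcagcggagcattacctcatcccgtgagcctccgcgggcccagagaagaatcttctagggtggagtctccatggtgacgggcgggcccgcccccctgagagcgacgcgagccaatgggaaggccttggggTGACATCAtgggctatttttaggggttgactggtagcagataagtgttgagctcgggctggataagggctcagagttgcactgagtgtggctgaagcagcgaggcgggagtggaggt

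Several immediate-early genes fell in both lines. In H1299 8 of the 39 were called lower and none higher, against 0.326% and 0.56% of all genes. JUN fell there by 1.10 ± 0.10 (adjusted p = 4.29e-06), KLF6 by 0.60 ± 0.10, CCN1 by 0.86 ± 0.12 and CCN2 by 0.48 ± 0.10. For JUN the H460 change minus the H1299 change was −0.55 ± 0.15 (adjusted p = 0.0161) and for KLF6 −0.44 ± 0.14 (adjusted p = 0.0358), so both fell further in H460. For CCN1 and CCN2 it was 0.03 ± 0.17 and −0.17 ± 0.14, which did not pass. MYC, the growth-promoting transcription factor, differed between the lines. In H460 it had 10.2, 10.2 and 10.3 at 2 h, against 10.1, 10.2 and 10.3 as lowest, median and highest at 0 h, whereas in H1299 it fell by 0.69 ± 0.08, a difference between the lines of 0.69 ± 0.11 (adjusted p = 0.000692). DUSP1, a phosphatase of JNK and p38, changed by 0.05 ± 0.12 in H460 and −0.58 ± 0.10 in H1299, a difference of 0.62 ± 0.14 (adjusted p = 0.00613).

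Over all genes tested, 8 were called lower and 5 higher in both lines. The 8 lower genes were JUN, KLF6, CCN1, CCN2, PPP1R15A, RHOB, ADM and NOC2L. RHOB, a small GTPase known to respond to genotoxic stress, fell by 0.51 ± 0.14 in H460 and by 0.70 ± 0.13 in H1299. The hormone gene ADM fell by 0.53 ± 0.15 in H460 and by 0.82 ± 0.13 in H1299. The 5 higher genes were REXO1L1P, LGALS16 and the microRNA genes MIR382, MIR107 and MIR154. The 8 lower genes make up 0.297% of the H460 calls and 4.91% of the 163 H1299 calls, the 5 higher ones 0.185% and 3.07%. By direction, they are 8 of the 60 genes called lower in H1299 and 5 of the 103 called higher. Of all genes, 8.61% were lower and 6.04% higher in H460. A further 28 genes were called in opposite directions, all of them lower in H460 and higher in H1299.

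**Figure D3:**
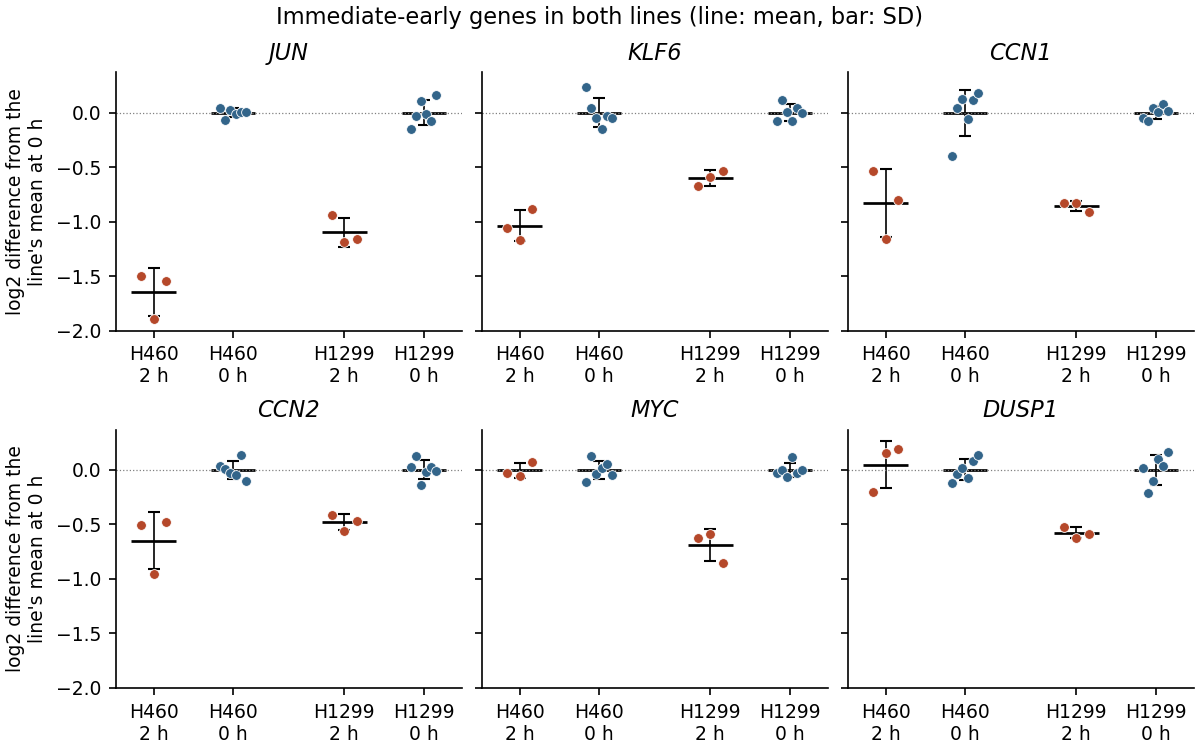
Levels of 6 immediate-early genes as log2 differences from each line's mean at 0 h, with H460 left of H1299 and 2 h left of 0 h, points as arrays, lines as means and bars as SD (18 arrays quantile-normalized together). JUN, KLF6, CCN1 and CCN2 lie below 0 h at 2 h in both lines. MYC and DUSP1 do so in H1299 only, and for both the difference between the lines passed the test.

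Genes of G2 and mitosis were lower at 2 h. Of 57 measured, 21 (36.8%) were called lower and none higher, against 8.61% and 6.04% of all genes, and the median change was −0.37. These genes encode the kinases, kinesins and kinetochore proteins that build the spindle and separate the chromosomes. The count was 5 without the 3rd replicate at 2 h, 30 without the 1st and 15 without the 2nd, and none passed with array width in the model, where the median was −0.12.

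BORA, the activator of the kinases Aurora A and PLK1 at mitotic entry, had 5.33, 5.05 and 4.92 at 2 h, against 6.07 at the lowest, 6.37 at the median and 6.77 at the highest at 0 h. All 3 arrays lay below all 6, a change of −1.29 ± 0.16 (2.45-fold lower, adjusted p = 0.000317), or −0.75 ± 0.26 with array width in the model (unadjusted p = 0.012). G2E3, a ubiquitin ligase expressed in G2, had 6.21, 5.63 and 5.06 at 2 h, against 6.64, 7.06 and 7.15 at 0 h, a change of −1.35 ± 0.20. CCNF, cyclin F, had 7.18, 7.39 and 7.31 at 2 h, against 7.76, 8.03 and 8.27 at 0 h, a change of −0.72 ± 0.13 (adjusted p = 0.00352). The 3 arrays of CCNF lay close together, and with array width in the model its change was −0.61 ± 0.26.

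In the 2 kinesins named, the 3rd replicate at 2 h lay far below its companions. KIF18A, which limits chromosome oscillations at the metaphase plate, had 7.19, 7.27 and 6.12 at 2 h, against 7.84, 7.92 and 8.10 at 0 h. Its change was −1.08 ± 0.20 (adjusted p = 0.00336). CENPE, the kinesin of the kinetochore, had 6.51, 6.08 and 4.69 at 2 h, against 6.58, 7.11 and 7.31 at 0 h. Its change was −1.24 ± 0.29, and −0.16 ± 0.48 with array width in the model.

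The promoters of BORA and CCNF are printed because the cell cycle homology region, with the letters TTTGAA, is known to repress genes of G2 and mitosis outside these phases. Both run from 250 bases before to 50 after the start, 5′ to 3′ (RefSeq, GRCh38.p14), with matches to TTTGAA on either strand in capitals. BORA lies at chr13:72727673-72727972 and CCNF at chr16:2429197-2429496, both on the plus strand. The match begins 177 bases before the start in BORA and 85 before it in CCNF.
BORA: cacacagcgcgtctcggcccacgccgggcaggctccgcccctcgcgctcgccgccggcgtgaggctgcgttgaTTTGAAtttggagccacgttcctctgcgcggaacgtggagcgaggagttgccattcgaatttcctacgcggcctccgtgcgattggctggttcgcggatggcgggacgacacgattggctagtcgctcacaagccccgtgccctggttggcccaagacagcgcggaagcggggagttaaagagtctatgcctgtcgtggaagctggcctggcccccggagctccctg
CCNF: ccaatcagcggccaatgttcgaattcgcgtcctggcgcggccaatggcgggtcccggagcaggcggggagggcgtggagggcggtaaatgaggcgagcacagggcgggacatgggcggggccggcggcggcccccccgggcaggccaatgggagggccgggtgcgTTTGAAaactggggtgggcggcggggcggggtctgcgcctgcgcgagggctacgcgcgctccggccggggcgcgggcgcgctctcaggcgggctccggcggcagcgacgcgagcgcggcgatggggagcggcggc

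Of the 57 genes of G2 and mitosis 49 had a promoter in the RefSeq table, and 32 of these held TTTGAA, or 65.3% against 15.4% of all promoters. The letters were in 14 of the 20 promoters of called genes and in 18 of the 29 of genes not called, that is 70% and 62.1%.

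At 4 h none of these genes was called against 0 h. The median change of the 57 genes against 0 h was −0.025 at 4 h, whereas 13 of them stood lower at 2 h than at 4 h, against the 6.59% of all genes. The difference between 2 h and 4 h was −1.28 ± 0.18 for BORA, −1.42 ± 0.23 for G2E3, −1.01 ± 0.23 for KIF18A and −0.77 ± 0.14 for CCNF. In H1299 the median change at 2 h was 0.093, with 1 gene higher and 1 lower. For 25 of the 57 genes the H460 change lay below the H1299 change, against 10.5% of all genes, among them G2E3 (−1.88 ± 0.28) and CENPE (−2.06 ± 0.39). CCNF was an exception, with a change of −0.50 ± 0.14 in H1299 (adjusted p = 0.0844) and a difference between the lines of −0.23 ± 0.20 that did not pass.

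**Figure D4:**
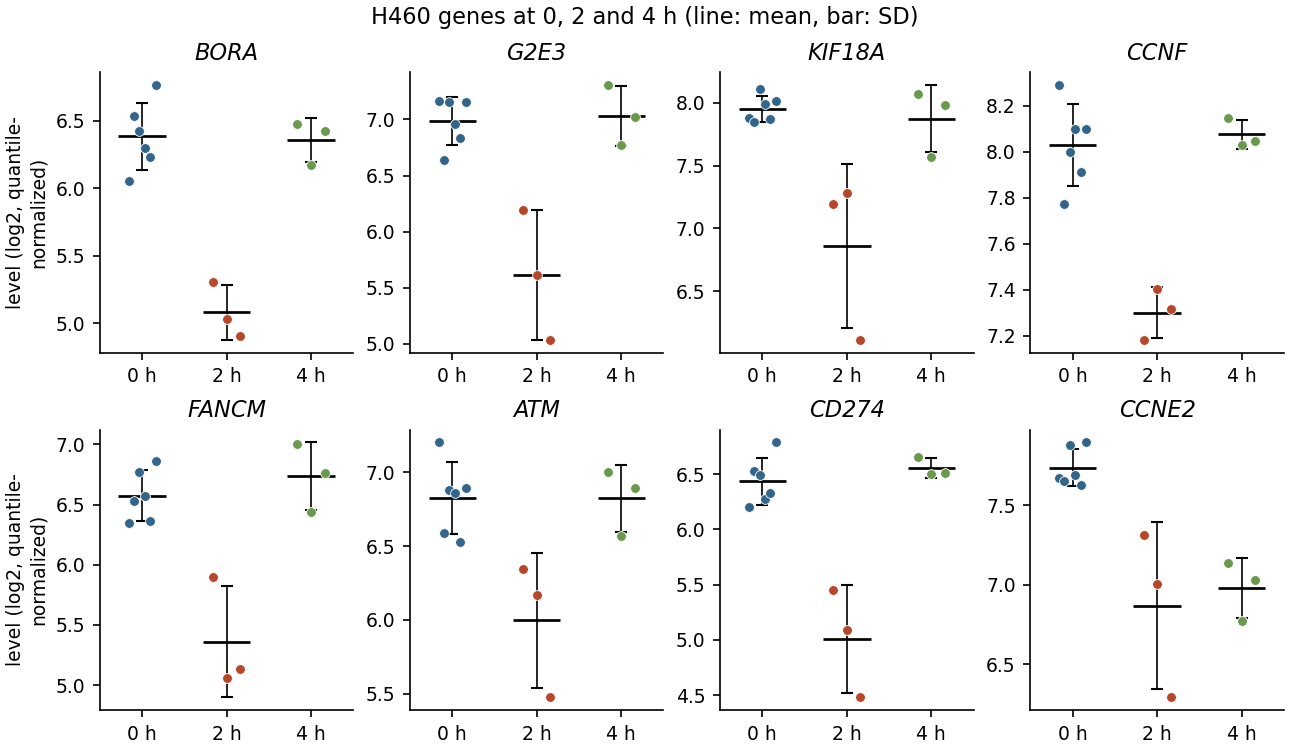
Levels (log2) of 8 genes in H460 at 0, 2 and 4 h, points as arrays, lines as means and bars as SD, with the 12 arrays quantile-normalized together. BORA, G2E3, KIF18A, CCNF, FANCM, ATM and CD274 are lowest at 2 h and back near the 0 h level at 4 h, whereas CCNE2 is low at both 2 h and 4 h.

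Genes of the damage response were called lower as well. Of 33 genes of double-strand break repair 11 were lower and 1 higher (33.3% and 3.03%), with a median of −0.39. Of 23 checkpoint genes 4 were lower (17.4%) and none higher, with a median of −0.15, against 8.61% lower and 6.04% higher over all genes. FANCM, the translocase that remodels stalled forks, had 5.91, 5.08 and 5.16 at 2 h, against 6.36, 6.55 and 6.86 at 0 h, a change of −1.20 ± 0.18 (adjusted p = 0.00109). MRE11 and NBN, subunits of the complex that senses broken ends, changed by −1.08 ± 0.24 and −0.84 ± 0.20. The helicase WRN changed by −0.99 ± 0.21 and the polymerase POLQ by −0.76 ± 0.17.

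ATM had 6.35, 6.18 and 5.50 at 2 h, against 6.53, 6.87 and 7.20 at 0 h, a change of −0.82 ± 0.19 (adjusted p = 0.0104). ATR changed by −0.48 ± 0.13 and its activator ETAA1 by −0.89 ± 0.17. In each gene named from these lists except FANCM the 3rd replicate was the lowest of the arrays at 2 h. The medians were −0.073 for repair and −0.066 for checkpoint genes with array width in the model, and without the 3rd replicate 2 repair genes and 1 checkpoint gene were lower. At 4 h none of either list was called lower than at 0 h. In H1299 the median changes were 0.18 and 0.12, and the H460 change lay below the H1299 change for 18 of the 33 repair genes, against 10.5% of all genes.

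Of 49 genes of G1/S and replication 4 (8.16%) were lower and none higher, which is near the share of all genes. The largest change among those named was that of CCNE2, cyclin E2, which had 7.30, 6.999 and 6.30 at 2 h, against 7.61, 7.67 and 7.88 at 0 h (−0.85 ± 0.17, adjusted p = 0.00605). CCNE2 remained low at 4 h (−0.76, adjusted p = 0.0429). ATAD2, a chromatin factor bound by E2F, changed by −0.50 ± 0.13. Of 56 replication-dependent histone genes 2 were lower and none higher, or 3.57% lower against 8.61% of all genes.

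Small nucleolar RNAs guide the modification of ribosomal RNA and are mostly processed from introns. They were lower in 68 and higher in 10 of 173 genes, with a median of −0.34. That is 39.3% and 5.78%, against 8.61% and 6.04% of all genes. SNORD12C had 6.08, 5.86 and 3.97 at 2 h, against 7.11, 7.42 and 8.56 at 0 h, the largest fall of any called gene whose arrays did not overlap (−2.35 ± 0.37, 5.09-fold lower). SNORA13 had 5.03, 4.88 and 4.94 at 2 h, against 6.20, 6.35 and 6.57 at 0 h (−1.42 ± 0.13, adjusted p = 2.53e-05), and its change was −1.55 ± 0.24 with array width in the model. The count of lower genes was 44 without the 3rd replicate, and the median was −0.11 with array width in the model. In H1299 none of the 173 was called.

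Genes named ZNF, most of which encode zinc finger proteins, were lower in 109 and higher in 10 of 480, with a median of −0.23. That is 22.7% and 2.08%, against 8.61% and 6.04% of all genes. ZNF850 had 5.44, 5.44 and 5.34 at 2 h, against 6.43, 6.59 and 6.72 at 0 h (−1.19 ± 0.13, adjusted p = 8.46e-05), and −1.13 ± 0.23 with array width in the model. In H1299 22 of the 480 were higher and none lower, against 0.56% and 0.326% of all genes. The H460 change lay below the H1299 change for 160 of the 480, against 10.5% of all genes. ZNF845 fell by 0.89 ± 0.16 in H460 and rose by 0.93 ± 0.15 in H1299. The median of the 480 was −0.068 with array width in the model, and 32 were lower without the 3rd replicate.

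Olfactory receptors, which lung cells are not known to use, were higher in 58 and lower in none of 340, with a median change of 0.17. That is 17.1% higher, where 6.04% of all genes were higher and 8.61% lower. Only 20 were higher without the 3rd replicate at 2 h, and with array width in the model the median was 0.02. OR3A2 had 5.73, 5.40 and 6.18 at 2 h, against 4.31, 4.44 and 4.87 at 0 h (1.27 ± 0.17). Scaling each array to a common median and interquartile range gave 53 higher and 37 lower olfactory receptors with a median of 0.00. As deposited 117 were higher and 0 lower, and with arrays centred on their median 81 were higher and 2 lower. The balance of the family thus differed between scalings. Genes of keratin-associated proteins of hair, picked out after their values were seen, were higher in 32 of 68, against 6.04% of all genes. All 12 KRTAP5 genes were higher, with a median of 1.32. KRTAP5-8 had 5.11, 5.27 and 6.31 at 2 h, against 3.09, 3.31 and 4.44 at 0 h. The KRTAP5 genes are a family of similar sequences, so their count is not one of independent genes. Their median was 0.53 with array width in the model and 0.40 in H1299, where none was called.

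Of 186 microRNA genes and hosts 24 were higher and 9 lower, with a median of 0.070. That is 12.9% and 4.84%, against 6.04% and 8.61% of all genes. Leaving out the 3rd replicate at 2 h gave 9 higher and 3 lower, and with array width in the model the median was −0.039. A row of the array reports RNA from the microRNA gene, precursors included, and not the mature microRNA alone. Mature sequences of 9 called genes, a selection from 7 lower and 23 higher genes with such a sequence, are printed because they are the microRNAs described next. The seed (bases 2 to 8 from the 5′ end) is in capitals. They are from RefSeq (GRCh38.p14), whose table held 164 of the 186 genes, 5′ to 3′. Of the 9, the 5 lower ones come first and the 4 higher ones after them. The let-7 pair shares a seed, as does the miR-15 pair, and each of the others has a seed of its own.
hsa-miR-21-5p: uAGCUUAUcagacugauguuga
hsa-let-7f-5p: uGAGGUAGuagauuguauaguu
hsa-let-7a-5p: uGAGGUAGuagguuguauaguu
hsa-miR-15a-5p: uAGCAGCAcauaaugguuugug
hsa-miR-15b-5p: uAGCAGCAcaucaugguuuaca
hsa-miR-107: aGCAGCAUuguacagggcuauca
hsa-miR-382-5p: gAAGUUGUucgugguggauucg
hsa-miR-9-5p: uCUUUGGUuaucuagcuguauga
hsa-miR-154-5p: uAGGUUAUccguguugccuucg

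MIR21, the gene of a microRNA abundant in many tumours, had 5.56, 5.16 and 4.43 at 2 h, against 6.18, 6.67 and 6.88 at 0 h. Its change was −1.53 ± 0.21 (adjusted p = 0.000644), or −0.79 ± 0.36 with array width in the model. MIRLET7F1 (−1.24 ± 0.23) and MIRLET7A1 (−0.72 ± 0.16) share the seed GAGGUAG and lie side by side on chromosome 9. Of the 10 let-7 genes measured 3 were lower, against 8.61% of all genes. MIR15A (−0.84 ± 0.18) and MIR15B (−0.62 ± 0.16) share the seed AGCAGCA and lie on chromosomes 13 and 3. MIR17HG, the host of the miR-17 cluster, fell by 1.20 ± 0.17.

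MIR107, whose seed GCAGCAU overlaps that of miR-15 by all but its end bases, went the opposite way. It had 5.90, 6.41 and 6.82 at 2 h, against 4.75, 4.88 and 5.40 at 0 h (1.43 ± 0.19), and it rose by 0.75 ± 0.18 in H1299. MIR382 had 4.36, 4.62 and 4.85 at 2 h, against 2.79, 2.97 and 3.64 at 0 h (1.52 ± 0.17), or 1.13 ± 0.31 with array width in the model. It rose in H1299 by 0.87 ± 0.18, and MIR154, on chromosome 14 like MIR382, rose by 0.71 ± 0.12 in H460 and 0.63 ± 0.12 in H1299. MIR9-1 rose by 1.42 ± 0.18 in H460. Under a common median and interquartile range 24 microRNA genes were higher and 44 lower. As deposited 40 were higher and 8 lower, and with arrays centred on their median 25 were higher and 13 lower. The balance of this list also differed between scalings.

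Among 19 circadian clock genes 5 were lower and 1 higher, that is 26.3% and 5.26% against 8.61% and 6.04% of all genes. The median change of the list was 0.096, or 0.033 with array width in the model, with 10 changes above 0 and 9 below. BMAL1 and its partner CLOCK, which drive the clock's transcription, changed by −0.89 ± 0.18 and −0.99 ± 0.22. BMAL2 changed by −1.09 ± 0.20, while the repressor NR1D1 rose by 0.61 ± 0.14. With array width in the model the changes were −0.084 ± 0.25 for BMAL1, −0.33 ± 0.39 for CLOCK, −0.52 ± 0.37 for BMAL2 and 0.27 ± 0.27 for NR1D1. NR1D1 had 7.75, 7.97 and 8.36 at 2 h, against 7.25, 7.39 and 7.61 at 0 h, and stood 0.90 ± 0.17 above its 4 h level. Of the clock genes 2 were lower and none higher without the 3rd replicate. Of 25 NF-kB targets 2 were lower and none higher, or 8% lower, which is near the 8.61% of all genes. The median of the list was −0.12, or −0.023 with array width in the model. Its 2 lower genes were the chemokine CXCL8 (−0.89 ± 0.18) and the inhibitor TNFAIP3 (−0.49 ± 0.12). Of 33 interferon-stimulated genes 6 were lower and 1 higher (18.2% and 3.03%), but 3 and none without the 3rd replicate, and the median was −0.16, or −0.013 with array width in the model. Among them were PARP9 at −0.94 ± 0.17 and SAMD9 at −0.96 ± 0.18.

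CD274, which encodes the immune checkpoint ligand PD-L1, was among the 15 genes that fell most. It had 5.47, 5.12 and 4.49 at 2 h, against 6.22, 6.42 and 6.79 at 0 h (−1.42 ± 0.19, 2.67-fold lower, adjusted p = 0.000441). The 2 h level minus the 4 h level was −1.55 ± 0.20, and the change against 0 h was −0.76 ± 0.31 with array width in the model. In H1299 CD274 changed by 0.01 ± 0.16, a difference between the lines of −1.52 ± 0.23 (adjusted p = 0.000464). LGALS16, a galectin gene, had 4.23, 4.90 and 5.67 at 2 h, against 3.08, 3.28 and 3.54 at 0 h, and rose by 1.64 ± 0.21 in H460 and by 1.70 ± 0.28 in H1299.

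Of 29 ATF4 targets 4 were lower and 1 higher, among them PHGDH, the entry enzyme of serine synthesis (−0.78 ± 0.17), and of 22 hypoxia genes 5 were lower (13.8% and 22.7% lower, against 8.61% of all genes). No ATF4 target and 1 hypoxia gene were called without the 3rd replicate at 2 h. Of 23 NRF2 targets 1 was higher and 1 lower, of 19 genes of cholesterol synthesis 1 was lower, of 19 ID and TGF-beta response genes 2 were lower, and of 26 genes of the BCL2 family and caspases 2 were higher and 2 lower. None of these 4 lists held a call without the 3rd replicate. Of 57 cytosolic ribosomal proteins only RPL22 was called (−1.10 ± 0.23), of 36 proteasome subunits 1 was lower, and of 33 subunits of complex I none was called by limma (7 at an unadjusted p below 0.05). With a common median and interquartile range 38 ribosomal proteins and 10 NRF2 targets were higher, so no direction is given for these genes.

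Markers of other cell types were looked at in the same way. Of 12 fibroblast markers COL6A3 (0.65 ± 0.14) and COL1A1 (0.59 ± 0.15) were higher, or 16.7% against 6.04% of all genes. LUM went the other way without being called (−0.54), and 10 of the 12 changes lay above 0 and 2 below. Of 11 leukocyte markers TYROBP (0.70 ± 0.16) and ITGAM (0.45 ± 0.13) were higher, or 18.2%, with 9 changes above 0 and 2 below. With array width in the model COL1A1 changed by −0.095 and TYROBP by 0.020. The summed intensity of the fibroblast markers was 529 to 646 at 2 h and 450 to 501 at 0 h, and that of the leukocyte markers 730 to 944 at 2 h and 632 to 741 at 0 h. PTPRC, which marks all leukocytes, was not called. No epithelial marker of 10 and no mesenchymal marker of 9 was called by limma (1 and 3 at an unadjusted p below 0.05). Of these markers 1 fibroblast gene and no leukocyte gene was called without the 3rd replicate at 2 h. The part of these markers in the changes above was not tested.

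**Figure D5:**
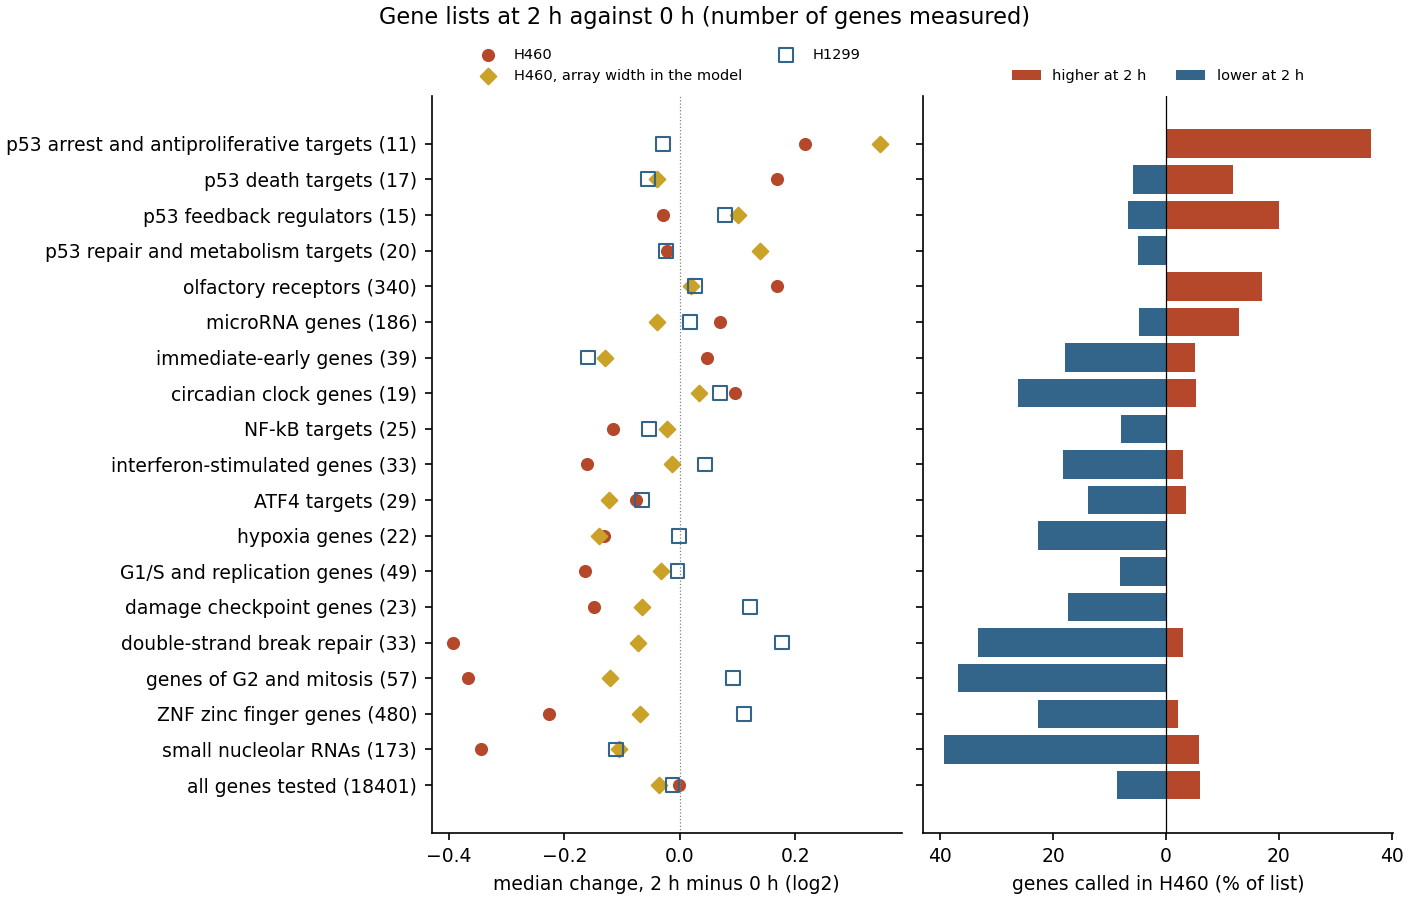
Left, median change (log2) of 18 gene lists and of all genes at 2 h against 0 h in H460, in H460 with array width in the model, and in H1299, with the number of genes measured in brackets. Right, share of each list called higher (to the right) or lower (to the left) in H460. Genes of G2 and mitosis, repair genes, ZNF genes and small nucleolar RNAs lie furthest to the left in H460, and their medians move towards 0 with array width in the model.

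Gene span differed between the higher and the lower genes, on either side of the genes not called. The median distance from start to end of the gene was 8.83 kb for the 1112 higher genes, 59 kb for the 1585 lower genes and 23.7 kb for genes not called. Among protein-coding genes alone it was 10.3, 64.6 and 26 kb. Long noncoding RNA genes were higher in 93 of 629 (14.8%) and lower in 9 (1.43%), against 6.04% and 8.61% of all genes. These are descriptions of the called genes, and the tie of span to array width was not tested.

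At 2 h 1240 genes (6.74%) lay above and 1213 (6.59%) below their 4 h level. Without the 3rd replicate at 2 h 689 genes were called, and with array width in the model limma called none (766 at an unadjusted p below 0.05). This comparison shares its 2 h arrays with the one against 0 h. BCHE, butyrylcholinesterase, had 4.42, 4.26 and 3.63 at 2 h and differed from 4 h by −1.58 ± 0.24. DNAJB4, a heat shock protein partner, differed from 4 h by −1.59 ± 0.26 and changed by −0.78 ± 0.23 against 0 h. CDSN, a protein of the skin's outer layer, stood 1.67 ± 0.34 above 4 h.

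Against H1299, 760 genes (4.13%) had a 2 h change in H460 above that in H1299, and 1926 (10.5%) one below it. Among the genes below it, RNY1, a Y RNA, stood out with a difference of −2.10 ± 0.46, having 2.93, 3.37 and 2.89 at 2 h in H460, against 3.74, 4.34 and 4.65 at 0 h. RNY1 changed by −1.17 ± 0.20 in H460 and by 0.96 ± 0.32 in H1299, which limma did not call (adjusted p = 0.164). Its H1299 arrays at 0 h ran from 3.43 to 5.75. Without the 3rd replicate of H460 at 2 h, 211 genes lay above and 989 below, and with array width in the model 35 and 81.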

How the data were processed

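The authors deposited 1 log2 value per row and array, which run from 1.46 to 14.1 on the 9 arrays. Per the labels' protocols 100 ng of total RNA was prepared for each one-colour Affymetrix array, and how the values were summarised and normalized is not given in the sources used here. The deposited table carries no detection calls and the labels no batch, and precision is limited by how many arrays there are.

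Of 32321 rows 19158 had 1 gene symbol in the platform annotation, 1388 had several and 11775 had none. Symbols of 19135 rows were updated through the RefSeq gene table (GRCh38.p14). The row with the highest mean over the 9 normalized arrays stood for a gene, which gave 18401 genes, without a filter on dim genes.

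Arrays were quantile-normalized over all rows and tested with lmFit and eBayes with trend (limma 3.58.1, R 4.3.3), two-sided, with Benjamini-Hochberg adjustment over all genes and a threshold of 0.05. H460 at 2 h against 4 h and at 4 h against 0 h were fitted over 12 arrays (0, 2 and 4 h). The difference between the lines was fitted as an interaction over 18, and that fit also gave the H1299 change. The difference in array width was tested by exact permutation.

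The members, the 32 gene lists and the alternatives were chosen with earlier results of these data known. Genes were named by a rule: CDKN1A and MDM2, the 15 largest rises and falls among called genes with no overlap between the arrays at 2 h and 0 h, up to 5 members of a list by smallest p, and the 5 largest differences each way from 4 h and from H1299. Of the genes it gives, some are not named. NR4A1, FOS, PPP1R15A, RHOB, MYC, DUSP1, TRIB1, MIRLET7F1, MIRLET7A1, MIR15A, MIR15B and MIR154, and the genes named for being called in both lines, fall outside it and were chosen after their values were seen. Alternatives were other scalings, row choices, filters and models, array width as a covariate, and leaving out arrays.

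Same-numbered arrays at 2 h and 0 h did not deviate together (correlations of −0.124, −0.134 and −0.148), so numbers were not taken as pairs. No 2 arrays held identical values. On simulated data for 2 h against 0 h, with 18401 genes, the test recovered 85 of 100 changes of 1 and 26 of 100 changes of 0.5 (log2). Of the calls 3.48% were false. Noise in the simulation was independent between genes, and no difference in array width between the groups was built in. The share of false calls among the genes called in the data cannot be read from it.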

Additional observations from a re-analysis of the deposited data

Results flagged for a closer look

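In 6 of 84 groups of 6 arrays looked at, 1 array at 0 h stood apart from its companions, which is 7.14% where chance gives about 5%. Among the array levels (log2) these were 10.1 for MDM2 in replicate 1, 5.17 for PRDM1, 9.53 for PHGDH and 4.36 for MIR9-1 in replicate 2, 5.4 for MIR107 in replicate 5 and 5.72 for TYROBP in replicate 6.

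For 58 of the 83 genes named the 2 h change differed between the lines in limma's interaction test, against 14.6% of all genes. Of these, 17 lay above 0 and 41 below, with adjusted p of at most 0.0417. Many of the 83 were named for their changes or differences in these same arrays. The counts of named genes here and below are therefore high by choice and are no separate result. Values in brackets are the H460 change minus the H1299 change (log2). Among p53 targets the H460 change was the higher in CDKN1A (1.305), PLK3 (1.0415), GADD45A (0.7663), PRDM1 (0.7914) and BAX (0.6216). It was the lower in the p53 targets and p53 regulator RCHY1 (−0.922), RRM2B (−1.1752) and MDM4 (−0.8199). Of the genes of early signalling it was higher in MYC (0.6852) and DUSP1 (0.6238) and lower in JUN (−0.5481), KLF6 (−0.437) and DUSP6 (−0.8712). Cell cycle genes lay lower in H460, with BORA (−1.1939), G2E3 (−1.882), KIF18A (−1.6052), CENPE (−2.0571), CCNE2 (−1.2571) and ATAD2 (−0.7705). So did the repair and checkpoint genes FANCM (−1.7291), WRN (−1.5306), MRE11 (−1.4286), POLQ (−1.1012), NBN (−1.172), ETAA1 (−1.3122), ATM (−1.2942) and ATR (−0.8353). Genes of inflammation and immunity were also lower, with CXCL8 (−1.2377), TNFAIP3 (−0.8769), PARP9 (−0.9558), SAMD9 (−1.7755) and CD274 (−1.5157). Clock activators were lower, with BMAL1 (−0.8342), BMAL2 (−1.2719) and CLOCK (−1.401), and their repressor higher, with NR1D1 (0.5739). Higher in H460 were the microRNA, keratin-associated and olfactory receptor genes MIR107 (0.7681), MIR9-1 (0.8869), KRTAP5-8 (1.4889), KRTAP5-2 (1.2588), KRTAP5-7 (1.1376) and OR3A2 (1.4024). Lower were the noncoding RNA genes MIR21 (−1.3769), MIR17HG (−1.5627), MIR15A (−0.887), SNORD12C (−1.9092), SNORD45B (−1.223) and SNORA13 (−1.4975). The same held for ZNF850 (−1.3454), ZNF845 (−1.8836), RPL22 (−1.222), ARHGAP29 (−1.848), DNAJB4 (−0.8956), BCHE (−1.2179) and RNY1 (−2.1037). The leukocyte markers and skin gene higher in H460 were TYROBP (0.7869), ITGAM (0.6088) and CDSN (1.2342).

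For 46 of the genes named the H460 level differed between 2 h and 4 h in limma, against 13.3% of all genes. Of these, 7 lay above 0 and 39 below, with adjusted p of at most 0.0498. In both sets, which share the 2 h arrays of H460, are 38 genes. Values in brackets are the 2 h level minus the 4 h level (log2). The p53 targets below their 4 h level were MDM2 (−0.7041), TP53INP1 (−1.2493), RCHY1 (−0.6442), GDF15 (−1.1394), PRDM1 (−0.4416), FAS (−0.8534), APAF1 (−0.8382) and RRM2B (−1.0522). Genes of early signalling below it were JUN (−0.5899), CCN1 (−0.666), DUSP1 (−0.5507) and DUSP6 (−0.8178). In G2 and mitosis they were BORA (−1.2797), G2E3 (−1.4182), KIF18A (−1.0119), CCNF (−0.7734) and CENPE (−1.1558). In repair and checkpoint signalling they were FANCM (−1.3719), MRE11 (−1.0028), POLQ (−0.815), ETAA1 (−0.6555), ATM (−0.8275) and ATR (−0.5408). Immune and clock genes below 4 h were TNFAIP3 (−0.4686), PARP9 (−0.8302), CD274 (−1.55), BMAL2 (−0.8671) and CLOCK (−0.8063). Noncoding RNA genes below 4 h were MIR21 (−1.0168), MIR17HG (−0.7403), MIR15A (−0.7727), SNORD12C (−1.2786), SNORD45B (−0.9088) and SNORA13 (−0.9501). The remaining ones below were ZNF850 (−0.8716), ZNF845 (−1.2623), RPL22 (−0.9665), DNAJB4 (−1.5861) and BCHE (−1.5802). Above their 4 h level stood NR1D1 (0.8981), MIR9-1 (0.7862), KRTAP5-8 (1.1534), KRTAP5-2 (1.0745), KRTAP5-7 (1.3458), COL1A1 (0.6394) and CDSN (1.6712).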

How the results depend on the processing

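Against 0 h the count of called genes (2697) was 4965 as deposited, 5351 with arrays centred on their median, 4058 with a common median and interquartile range, 4687 with array weights, 5275 with 1 mean per time point over 21 arrays, 618 and 560 with only 0 h replicates 1 to 3 or 4 to 6, and 0 by limma with array width as a covariate (879 at an unadjusted p below 0.05). Against 4 h (2453) it was 4127, 4971, 3894 and 0 under the first 3 scalings and the covariate (766 unadjusted), and for the difference between the lines (2686) it was 116 with the covariate. The cause of these shifts was not tested. The share of lower genes among the calls was 74.3% with arrays centred on their median, against 58.8%. It was 51.5% with quantile normalization over the genes tested and 46% when all rows of the table were tested. The excess of lower genes thus depended on the setting. Leaving out 1 array gave 670 to 3946 genes against 0 h, 689 to 3626 against 4 h and 1200 to 4476 for the lines. The lowest count of each came without the 3rd H460 replicate at 2 h and the highest without the 1st. Counts moved by over 1.5 times also without 0 h replicates 3 (1695), 4 (1715) and 6 (1797) against 0 h, without 2 h replicate 2 (1536) and 4 h replicates 1 (873) and 3 (983) against 4 h, and without H1299 2 h replicates 2 (1582) and 3 (1359) for the lines. With the replicate number as a block, which does not pair these arrays, the counts were 1132, 1621 and 363. The difference in array spread (−0.498) ran from −0.563 to −0.44 with 1 array left out and was −0.452 and −0.543 against 0 h replicates 1 to 3 and 4 to 6 (exact permutation p = 0.1 each, the smallest possible). Over all rows of the table, an alternative chosen after seeing the data, it was −0.365. Of 80 genes named and called, 33 kept direction and call in each setting run except the width covariate. There were 25 or 26 settings with that covariate counted, since dim genes are absent where the dim ones are left out. Under that covariate BAX (−0.2052), NR4A1 (−0.0418), COL1A1 (−0.0952) and DNAJB4 (0.0025) changed sign.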
